A study of Homo sapiens with 4 samples.

Results

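The cytochrome P450 genes encode heme-containing monooxygenases, and 54 of them, listed by name, were examined for the histone variant macroH2A1 in IMR90 cells. Each gene was its annotated span in hg19 (GENCODE), from the first to the last annotated base, and all 54 were measured, among 19506 measured protein-coding genes of which 18753 were autosomal. All 54 lie on autosomes, on 15 chromosomes.

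IMR90 is a line of untransformed fibroblasts from human fetal lung, grown here without treatment. Chromatin was crosslinked with formaldehyde, sheared and precipitated with an antibody against macroH2A1, a histone H2A variant with a large globular macro domain. The series comprised 2 ChIP samples, described by the submitters as biological replicates, and 2 inputs, which were sonicated chromatin taken before precipitation. Each ChIP sample came with a segmentation of the genome in which every segment has a −log10 p and a ratio of ChIP to input on the log2 scale. The inputs were the denominator of that ratio and had no values of their own.

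P450 enzymes insert an oxygen atom into small lipophilic molecules, using electrons passed on by P450 reductase in the endoplasmic reticulum or by ferredoxin in mitochondria. Members of families 1 to 3 are best known for the metabolism of drugs and other foreign compounds, many of them in liver, while other families make or break down steroids, bile acids, fatty acids, retinoic acid and vitamin D. MacroH2A1 is known for its enrichment on the inactive X chromosome and over broad domains of silent chromatin, and many active genes are poor in it.

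The log2 ratio of a gene was the mean over its assayed bases, taken in each replicate and then averaged. Enriched segments were those with a ratio above 0 on this scale and a −log10 p of 2 or more, and a gene was called covered where at least 50% of its bases assayed in both replicates lay in segments enriched in both. The files hold no read counts, so the depth and its counting error are unknown and the error given is the SD of the 2 replicates. With 1 group of 2 ChIP samples no difference could be tested, and all comparisons below are descriptions. The scaling between ChIP and input is not given, so values are read as relative within a library and not as amounts of macroH2A1.

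The P450 genes were absent from the macroH2A1-poor end of the range, and most had intermediate or high values. Of the 54, 17 were covered (31.5%), against 17.4% of autosomal genes. There were 28 with a log2 ratio below 0 in both replicates (51.9%, against 71.8% of autosomal genes) and 21 with a ratio above 0 in both (38.9%, against 20.8%). The other 5 had opposite signs in the replicates. The median over the P450 genes was −0.25, against −0.90 over autosomal genes. When the autosomal genes were divided into 4 equal parts at −1.85, −0.90 and −0.03, the P450 genes numbered 0 in the lowest part, 6 in the next, 26 in the one above and 22 in the highest.

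The difference from other genes in coverage was smaller at stricter limits, and strong depletion was lacking. With segments counted as enriched only above a log2 ratio of 0.5, 6 P450 genes were covered (11.1%), near the 10.1% of autosomal genes. These 6 were CYP11A1, CYP19A1, CYP24A1, CYP26B1, CYP27C1 and CYP46A1. By the mean over the gene span, CYP1A1, CYP1A2, CYP1B1 and CYP2S1 were above 0.5 as well. That level is near the 88th percentile of autosomal genes. With a −log10 p of at least 5, 11 P450 genes were covered (20.4%, against 14.4%). The lowest member, CYP51A1, was at −1.79, which lies above 27.2% of autosomal genes, and the highest, CYP27C1, was at 1.18, above 99.0%.

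**Figure D1:**
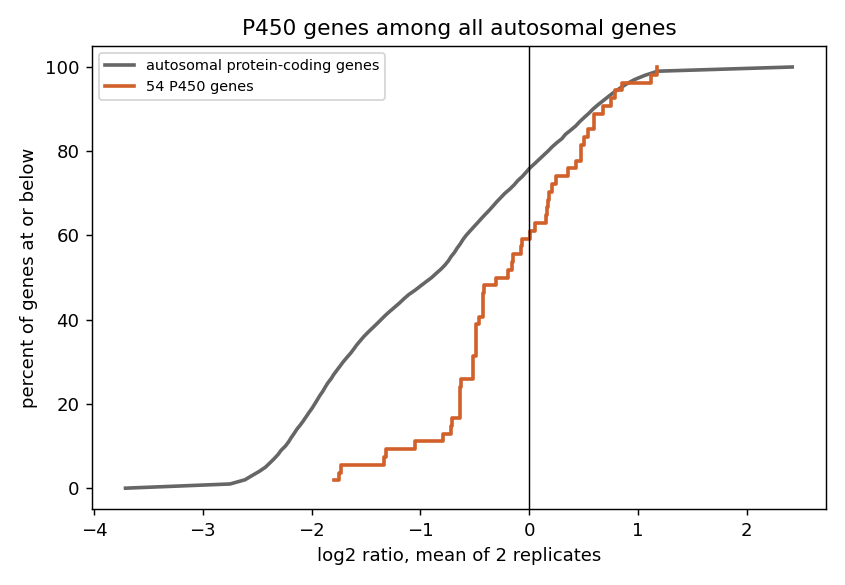
Cumulative distribution of the log2 ratio of macroH2A1 ChIP over input, averaged over 2 replicates (x axis), as the percent of genes at or below each value (y axis), for the 54 P450 genes and for autosomal protein-coding genes. The P450 curve begins at −1.79, stays to the right of the other curve over most of the range, and meets it near its upper end.

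The 2 replicates ranked the P450 genes alike, with a Pearson r of 0.89 across the 54 genes, against 0.91 across autosomal genes. Genes are not independent replicates, and members in 1 segment share 1 measurement. The SD was at most 0.2 in 41 members and above 0.5 in 3, which were CYP4V2, CYP2R1 and CYP27B1. Segments were long, with a median of 27.4 kb in replicate 1 and 53.7 kb in replicate 2, and 32 members lay whole within 1 segment in both replicates. The 54 genes therefore rested on 64 and 47 distinct segments, and 15 of them lay in exactly the same segments as another member. With such members counted once, 44 sets remained, of which 16 were covered and 19 below 0 in both, with a median of −0.07.

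**Figure D2:**
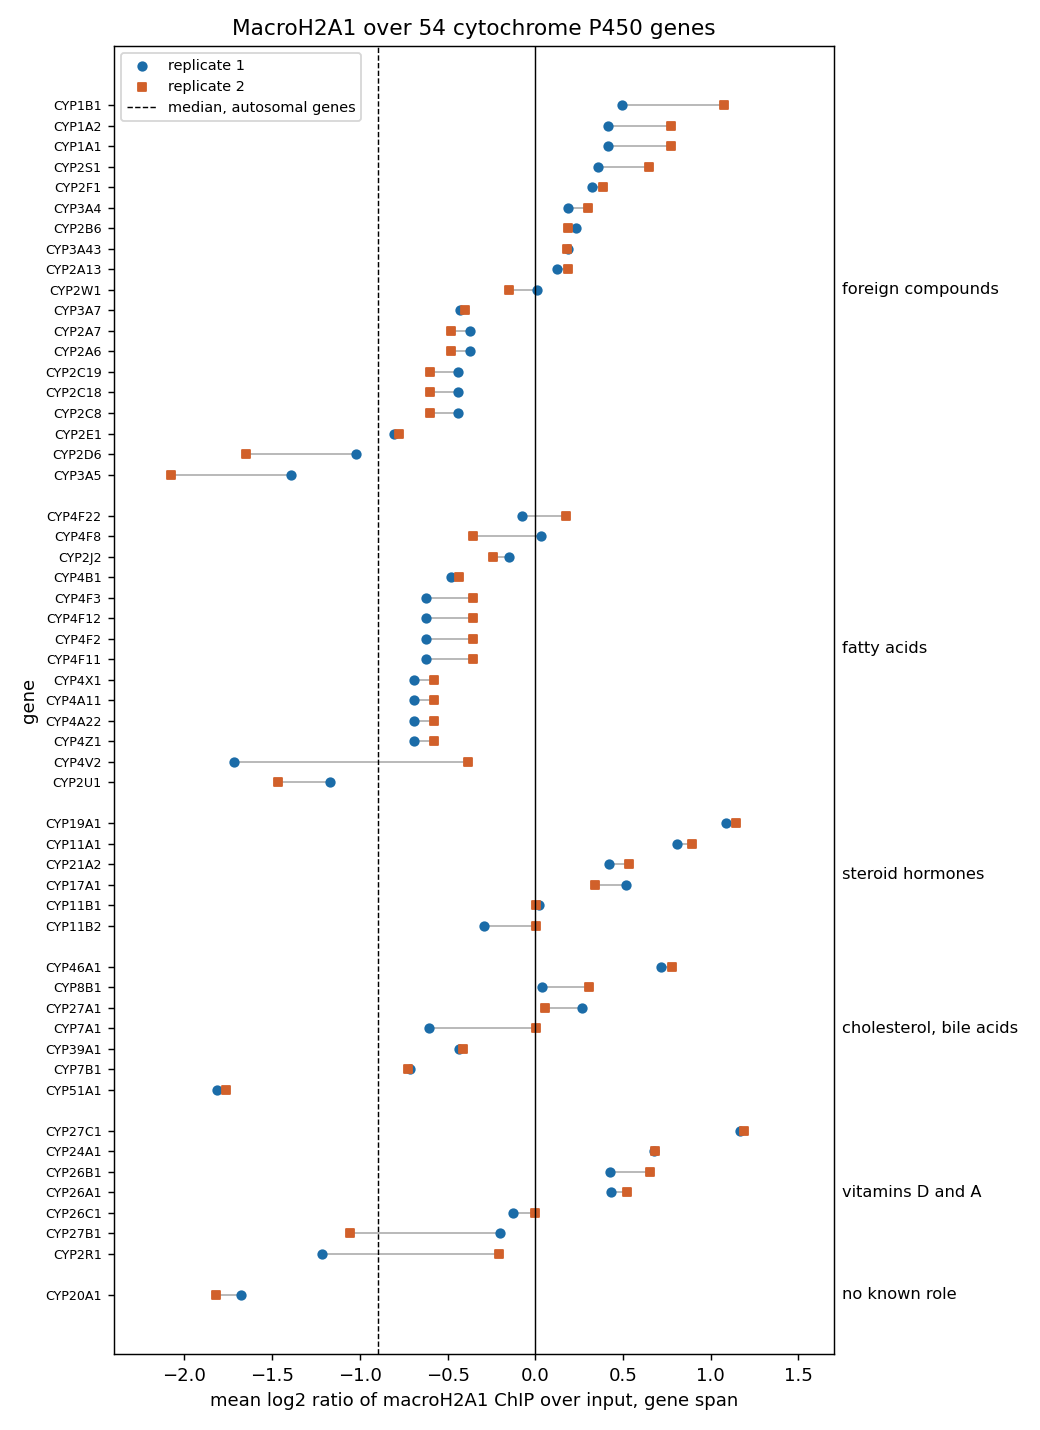
Mean log2 ratio of macroH2A1 ChIP over input (x axis) for each P450 gene (y axis), by role, with replicate 1 as circles and replicate 2 as squares. The dashed line marks the autosomal median of −0.90. The genes of steroid hormone synthesis lie at or to the right of 0 apart from CYP11B2 in replicate 1, and most genes of fatty acid metabolism lie to the left of 0.

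The start regions of P450 genes differ in sequence from those of other genes, and 5 are shown: 2 pairs of like CpG content and different macroH2A1 levels, and CYP1A1 as a start with a TATAAA motif. CYP3A4, the main drug-metabolising P450 of adult liver, and its neighbour CYP3A5 have starts that are poor in CpG, and they differed in macroH2A1 (0.24 and −1.73). CYP1A1, which oxidises polycyclic aromatic hydrocarbons and is induced by the aryl hydrocarbon receptor, was at 0.59. CYP2S1, expressed in epithelia, and CYP2U1, a fatty acid hydroxylase, both have CpG-rich starts, with log2 ratios of 0.50 and −1.32. The sequences are from RefSeq (GRCh38.p14 table), written 5′ to 3′ on the strand of the gene and ending just before the annotated gene span, and capitals mark CG dinucleotides and the TATAAA motif. CYP1A1 and CYP3A4 each hold 1 TATAAA, and that of CYP3A4 falls in the bases left out because they overlap the gene span. By exact match to the hg19 genome they lie at chr7:99381872-99382057 (minus strand, CYP3A4), chr7:99277620-99277869 (minus, CYP3A5), chr15:75017878-75018119 (minus, CYP1A1), chr19:41698874-41699114 (plus, CYP2S1) and chr4:108852455-108852704 (plus, CYP2U1).
CYP3A4: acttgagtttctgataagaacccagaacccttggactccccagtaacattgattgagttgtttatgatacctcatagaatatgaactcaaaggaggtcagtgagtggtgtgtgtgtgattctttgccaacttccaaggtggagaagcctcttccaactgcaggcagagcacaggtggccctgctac
CYP3A5: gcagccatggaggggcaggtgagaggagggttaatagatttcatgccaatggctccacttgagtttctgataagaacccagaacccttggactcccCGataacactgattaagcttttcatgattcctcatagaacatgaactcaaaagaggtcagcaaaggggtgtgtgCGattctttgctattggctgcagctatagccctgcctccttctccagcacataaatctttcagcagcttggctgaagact
CYP1A1: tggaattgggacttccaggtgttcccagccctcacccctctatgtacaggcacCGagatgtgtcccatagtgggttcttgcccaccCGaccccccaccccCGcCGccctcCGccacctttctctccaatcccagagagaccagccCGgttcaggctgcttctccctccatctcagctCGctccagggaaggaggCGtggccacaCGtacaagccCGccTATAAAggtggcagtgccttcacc
CYP2S1: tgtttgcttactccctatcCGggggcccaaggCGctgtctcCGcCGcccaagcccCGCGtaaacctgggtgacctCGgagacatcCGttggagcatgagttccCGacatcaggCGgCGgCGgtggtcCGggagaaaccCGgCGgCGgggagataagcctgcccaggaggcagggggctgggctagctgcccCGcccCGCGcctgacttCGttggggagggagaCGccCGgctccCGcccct
CYP2U1: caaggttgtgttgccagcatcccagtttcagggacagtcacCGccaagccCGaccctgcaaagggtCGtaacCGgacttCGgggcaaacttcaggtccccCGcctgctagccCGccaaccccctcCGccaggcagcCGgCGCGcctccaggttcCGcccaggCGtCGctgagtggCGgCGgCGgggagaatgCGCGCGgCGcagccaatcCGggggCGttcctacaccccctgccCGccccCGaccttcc

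In the RefSeq table, 39 of the 54 members had a promoter entry, and for 250 bases before the start they held a median of 4 CpG dinucleotides, against 18 in 14344 autosomal genes. At most 5 CpG were found in 23 members (59.0%, against 22.1%), and at least 15 in 12 (30.8%, against 59.4%). The GC content had a median of 55.2%, against 62.8%. The motif TATAAA, on either strand, occurred in 14 of the 39 (35.9%, against 9.16% of autosomal genes). TNGCGTG, the core recognised by the aryl hydrocarbon receptor, occurred on either strand in 1 of 39, CYP20A1, or 2.56% against 5.38%. A match is a match of letters only, and a motif outside these 250 bases was not counted. No entry was found for CYP1B1, CYP2C18, CYP2D6, CYP2F1, CYP4A11, CYP4A22, CYP4F12, CYP7A1, CYP7B1, CYP8B1, CYP11B1, CYP11B2, CYP24A1, CYP27B1 and CYP46A1.

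Across autosomal genes macroH2A1 was lower at higher CpG content, from a median log2 ratio of −0.21 for genes with at most 5 CpG to −0.80 for those between and −1.51 for those with at least 15. The P450 medians were not in that order, at −0.43 for the 23 with at most 5 CpG, 0.53 for the 4 between and −0.31 for the 12 with at least 15. These classes are small, and members that share segments were each counted. Among the CpG-rich P450 genes the values ran from −1.79 in CYP51A1 to 0.54 in CYP26B1, and among the CpG-poor ones from −1.73 in CYP3A5 to 1.12 in CYP19A1. Spearman's rho between CpG number and log2 ratio was −0.12 across the 39 members and −0.36 across autosomal genes. Of the CpG-poor P450 genes 34.8% were covered, against 29.6% of CpG-poor autosomal genes, and of the CpG-rich ones 25.0%, against 9.80%.

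Genes assigned by family to the metabolism of foreign compounds divided between both sides of 0. Of these 19 genes, 8 were covered (42.1%, against 17.4% of autosomal genes). There were 9 below 0 in both replicates (47.4%, against 71.8%) and 9 above (47.4%, against 20.8%), with a median of −0.07. All 3 members of family 1 were on the high side. CYP1B1, which oxidises estradiol and polycyclic hydrocarbons and is known to be expressed in mesenchymal cells, was the highest of the group, at 0.50 in replicate 1 and 1.08 in replicate 2 (0.79 ± 0.41, SD, n = 2). Both replicates were above 0, yet only 37.3% of it was covered, because replicate 1 had a segment over 62.7% of the gene at 0.20 with a −log10 p of 1.69. A higher one, at 0.99, lay over the upstream part of the annotated span, before the start of the canonical transcript. CYP1A1 and CYP1A2, a pair of hydrocarbon and caffeine oxidising enzymes, lay in 1 segment in each replicate, at 0.41 and 0.77 (0.59 ± 0.25, SD, n = 2), and were covered to 100%.

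The lowest genes of this group were CYP3A5 and CYP2D6. CYP3A5, a drug-metabolising enzyme also known from tissues outside the liver, was at −1.39 and −2.08 (−1.73 ± 0.48, SD, n = 2). CYP2D6, which metabolises many antidepressants and opioids, was at −1.02 and −1.65 (−1.34 ± 0.44, SD, n = 2). Both genes lay below the autosomal median in both replicates, with no base in an enriched segment. CYP2E1, the ethanol-inducible P450, was the next lowest, at −0.80 and −0.78. The value of CYP2W1, a P450 known from tumours, was 0.01 in replicate 1 and −0.15 in replicate 2, so its sign was not settled by these replicates.

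The 4 CYP3A genes lie side by side at chr7:99245817-99463716, and macroH2A1 was lowest at one end of this cluster in both replicates. CYP3A5, at that end, was at −1.73, CYP3A7, the fetal liver form, at −0.41, CYP3A4 at 0.24 and CYP3A43 at 0.18. CYP3A7 was at −0.43 and −0.40 in the 2 replicates, CYP3A4 at 0.19 and 0.30, and CYP3A43 at 0.19 and 0.18. The difference of CYP3A5 minus CYP3A7 was −0.96 in replicate 1 and −1.67 in replicate 2. Minus CYP3A4 it was −1.58 and −2.38, and minus CYP3A43 −1.58 and −2.26, so CYP3A5 was lower in each replicate. These were the only pairs of members within 1 Mb that differed by over 1 on the log2 scale, of 54 pairs. A segment of 132.3 kb in replicate 1 and 132.0 kb in replicate 2 covered CYP3A4 and all or most of CYP3A43, with −log10 p of 4.52 and 4.82. Neither gene was therefore counted as covered at a −log10 p of at least 5.

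The CYP2 cluster at chr19:41349446-41713444 was also low at one end and high at the other. CYP2A6, the nicotine oxidase, and CYP2A7 shared a segment and were both at −0.37 and −0.48. CYP2B6, induced by phenobarbital-like drugs, was at 0.23 and 0.19, CYP2A13, a respiratory tract enzyme, at 0.12 and 0.19, and CYP2F1, also of the respiratory tract, at 0.32 and 0.39. CYP2S1 was the highest, at 0.36 and 0.65. The last 4 genes were all covered, CYP2A13 to 77.2% and the others to 100%. At a −log10 p of at least 5, CYP2S1 was still covered, and CYP2B6, CYP2A13 and CYP2F1 were not. In both replicates the ratio dropped from the segment over CYP2S1 to below −2 shortly after the gene.

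**Figure D3:**
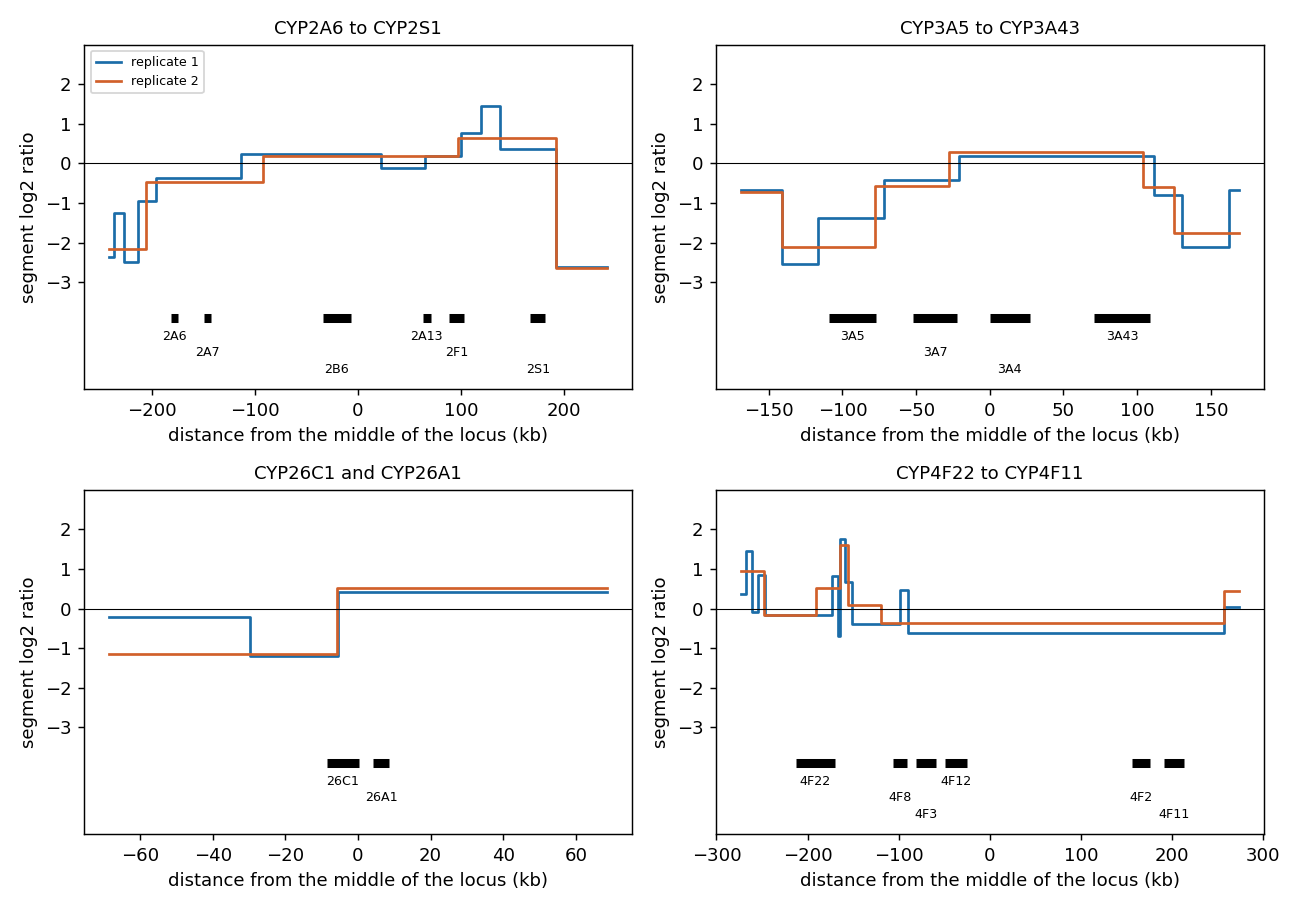
Segment log2 ratio of macroH2A1 ChIP over input (y axis) against distance from the middle of the locus in kb (x axis) for 4 groups of neighbouring P450 genes, with replicate 1 and replicate 2 as lines and genes as black bars. The lines rise from CYP3A5 to CYP3A4, are higher over CYP2S1 than over CYP2A6, step up inside CYP26C1, and are flat over most CYP4F genes. Between CYP2A6 and CYP2S1 replicate 1 is uneven, and its highest segment, at 1.44, lies between CYP2F1 and CYP2S1.

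CYP2C18, CYP2C19 and CYP2C8, which metabolise drugs such as proton pump inhibitors (CYP2C19) and paclitaxel (CYP2C8), shared 1 segment in each replicate, 480.0 and 468.5 kb long. All 3 were at −0.44 and −0.60 (−0.52 ± 0.11, SD, n = 2) and none was covered. How reads that match several near-identical genes were treated is not given, so the split between CYP2A6, CYP2A7 and CYP2A13, between the CYP3A genes, and between CYP2D6 and its pseudogene copies is uncertain.

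Genes of fatty acid metabolism had no covered member, against 17.4% of autosomal genes, and most lay between the autosomal median and 0. Of the 14, 12 were below 0 in both replicates (85.7%, against 71.8% of autosomal genes) and 2 had opposite signs. The median was −0.49, above the autosomal −0.90, and the quartiles were −0.64 and −0.46. CYP4A11 and CYP4A22, omega-hydroxylases of medium-chain fatty acids, lay with CYP4X1 and CYP4Z1 in 1 segment in each replicate, 376.5 and 387.2 kb long, and all 4 were at −0.69 and −0.58. CYP4F2, CYP4F3, CYP4F11 and CYP4F12, which hydroxylate leukotrienes and long-chain fatty acids, lay in another, 346.3 and 377.2 kb long, at −0.62 and −0.35. So 8 of the 14 genes rested on 2 pairs of segments. CYP4B1, at −0.48 and −0.43, and CYP2J2, an arachidonic acid epoxygenase, at −0.15 and −0.24, were also below 0 in both.

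The highest genes of this group were CYP4F22 and CYP4F8, and both changed sign between replicates. CYP4F22, a hydroxylase of the skin barrier lipids mutated in ichthyosis, was at −0.07 and 0.18, with 7.94% of it covered. CYP4F8, a prostaglandin hydroxylase, was at 0.03 and −0.35. The lowest were CYP2U1, at −1.17 and −1.47 (−1.32 ± 0.21, SD, n = 2), and CYP4V2, mutated in a crystalline retinal dystrophy, at −1.72 and −0.38 (−1.05 ± 0.94, SD, n = 2). CYP4V2 had the largest SD of the 54 members. Replicate 1 had short segments at −2.14 and −1.54 over the gene, with a segment of 1.1 kb at 0.74 between them. Replicate 2 had a single one of 80.7 kb.

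The genes of steroid hormone synthesis stood highest among the P450 groups beside those of vitamins. Of the 6, 3 were covered (50%, against 17.4% of autosomal genes) and 5 were above 0 in both replicates (83.3%, against 20.8%). In both replicates 0 were below (against 71.8%), and the median was 0.45. CYP19A1, aromatase, which makes estrogens from androgens, was at 1.09 and 1.15 (1.12 ± 0.04, SD, n = 2), and CYP11A1, which cuts the cholesterol side chain in the first step of steroid synthesis, at 0.81 and 0.90 (0.85 ± 0.06, SD, n = 2). CYP21A2, the adrenal 21-hydroxylase, was at 0.42 and 0.53, though how its reads were separated from those of its pseudogene copy is not given. All 3 were covered to 100%. CYP17A1, which hydroxylates steroids at carbon 17 and cleaves the side chain there, was above 0 in both, at 0.52 and 0.34, and was not covered, because the −log10 p of its segment in replicate 2 lay just under the limit of 2.

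The lowest of the group were CYP11B1 and CYP11B2, the near-identical enzymes that complete the synthesis of cortisol and aldosterone. CYP11B1 was at 0.02 and 0.00, and CYP11B2 at −0.29 and 0.00. Neither was covered, and their split is uncertain for the reason given above.

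CYP19A1 has several alternative first exons used in different tissues. From the RefSeq table, 7 starts over 75.5 kb of the gene were placed on hg19 by a single exact match. The start of the canonical transcript, which lies farther upstream, was not among these 7. All 7 lay in enriched segments in both replicates. In replicate 1 the segment value was 1.19 at the first 2 starts, 0.85 at the next 2 and 1.38 at the 3 nearest the coding exons. In replicate 2 a single segment of 411.2 kb gave 1.15 at all of them, so the differences in replicate 1 were not seen in the other library.

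Genes of cholesterol and bile acid metabolism covered nearly the whole range. Of the 7, 1 was covered (14.3%, against 17.4% of autosomal genes). There were 3 below 0 in both replicates (42.9%, against 71.8%) and 3 above (42.9%, against 20.8%), with a median of −0.30. CYP51A1, which removes the 14-alpha methyl group of lanosterol in cholesterol synthesis and is widely expressed, was the lowest P450 gene, at −1.82 and −1.77 (−1.79 ± 0.04, SD, n = 2). In a 5-kb window at its annotated start the mean was −0.24, and a segment at 0.67 in replicate 2 held 8.87% of the gene. CYP46A1, the cholesterol 24-hydroxylase of neurons, was at 0.72 and 0.78 (0.75 ± 0.04, SD, n = 2) and covered to 100%. Over the gene span CYP51A1 was below 0 and CYP46A1 above 0 in both replicates.

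CYP7B1, an oxysterol hydroxylase, was the second lowest of the group, at −0.71 and −0.73, within segments of 2091.4 and 3546.7 kb, the longest over any member. CYP39A1, another oxysterol hydroxylase, was at −0.44 and −0.41. CYP7A1, the rate-limiting enzyme of bile acid synthesis, was at −0.61 in replicate 1 and 0.00 in replicate 2, so the replicates did not place it on 1 side. CYP8B1, the sterol 12-alpha-hydroxylase that sets the share of cholic acid, was at 0.04 and 0.31, and was in an enriched segment in replicate 2 only.

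CYP27A1, the mitochondrial sterol 27-hydroxylase, was mixed along its length. Its mean was 0.27 and 0.05, with 34.3% covered. The segments over the start were at −0.87 in replicate 1 and −1.11 in replicate 2, and those further in reached 1.29 and 0.65. In a 5-kb window at the annotated start the mean was −0.99, which has the opposite sign.

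Genes of vitamin D and retinoic acid metabolism had the most covered members in proportion, 5 of 7 (71.4%, against 17.4% of autosomal genes). Their median was 0.48. CYP27C1, a retinoid desaturase known from skin, was the highest of all 54, at 1.16 and 1.19 (1.18 ± 0.02, SD, n = 2), with 96.0% covered. CYP24A1, which degrades active vitamin D, was at 0.68 in both replicates and covered to 100%. Of the enzymes that make active vitamin D, CYP2R1, the liver 25-hydroxylase, was at −1.21 and −0.20 (−0.71 ± 0.71, SD, n = 2). CYP27B1, the kidney 1-alpha-hydroxylase, was at −0.20 and −1.06 (−0.63 ± 0.61, SD, n = 2). Both genes were below 0 in each replicate, with means above the autosomal median of −0.90. The size differed widely between replicates, in opposite order.

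The 3 CYP26 genes encode the enzymes that clear retinoic acid, and all 3 were covered. CYP26A1 was at 0.43 and 0.52 and covered to 100%, and CYP26B1 at 0.42 and 0.65 and covered to 62.9%. CYP26C1, which lies beside CYP26A1 at chr10:94820555-94829297, contained a segment boundary 3019 bases into the gene in replicate 1 and 2749 bases into it in replicate 2. Before it the segments were at −1.19 and −1.15, and after it at 0.43 and 0.52. Its mean was therefore −0.13 and 0.00 although 65.5% of it was covered. CYP26B1 and CYP26C1 were the members nearest above the 50% limit, and CYP1B1 and CYP27A1, at 37.3% and 34.3%, those nearest under it.

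CYP20A1, a P450 whose substrate is not established, was at −1.68 and −1.82 (−1.75 ± 0.10, SD, n = 2). It ranked second lowest after CYP51A1, with CYP3A5 next. In both replicates the values over the last part of the gene were higher, at −0.28 and −0.37, than over the rest, which was at −1.55 and −2.19 in replicate 1 and −2.10 in replicate 2.

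A drop in macroH2A1 at the start was less frequent in the P450 genes than in autosomal genes. Over autosomal genes, the median log2 ratio went from −0.06 in the 5-kb bin centred 7.5 kb before the start of the canonical transcript to −1.05 in the bin centred 2.5 kb inside it. Over the P450 genes the medians were −0.18 and −0.40. A drop of at least 0.5 in the mean of both replicates, from 5 to 10 kb before the start to the first 5 kb inside, was found in 7 members (13%) and in 38.5% of autosomal genes. No step at all in either replicate was found in 33 members (61.1%), against 38.3%, with members that share segments each counted. A rise of at least 0.5 was found in 5 members (9.26%), against 7.75%.

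**Figure D4:**
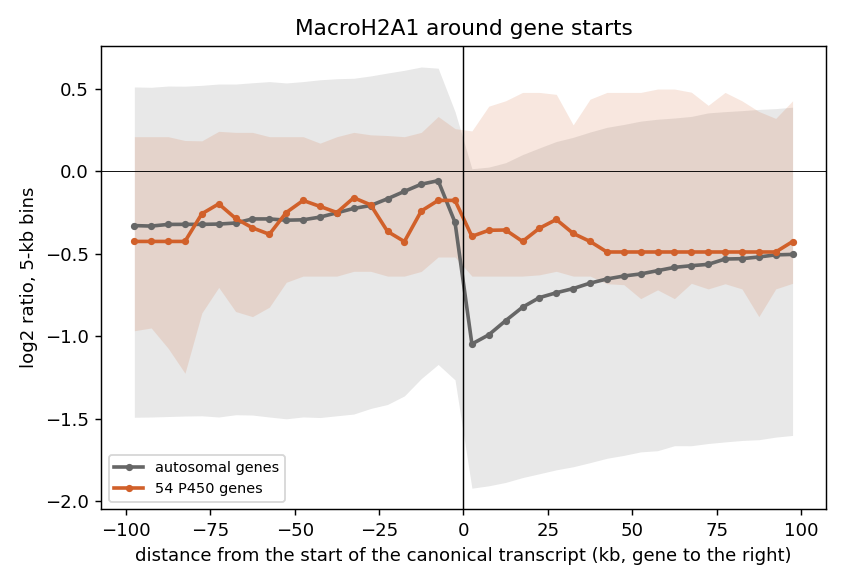
Median log2 ratio of macroH2A1 ChIP over input in 5-kb bins (y axis) against distance from the start of the canonical transcript in kb (x axis, gene to the right), for the 54 P450 genes and for autosomal genes, with the range from the lower to the upper quartile shaded. The autosomal line falls to −1.05 just inside the start, and the P450 line goes from −0.18 to −0.40.

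Segment boundaries were also farther from P450 starts. A boundary lay within 2 kb of the start in 8 members in replicate 1 (14.8%, against 36.8% of autosomal genes) and in 2 in replicate 2 (3.70%, against 24.6%). The median distance was 16789.5 and 26955 bases in the 2 replicates, against 4719 and 10786. Replicate 2 has fewer and longer segments, 25583 against 46951, and the part of segment length in the steps seen in 1 replicate alone was not tested.

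Of the 7 members with a drop, CYP2U1 showed it alike in both replicates, with steps of −2.12 and −2.11. Its low segment began 962 and 1303 bases from the start and ran about as far as the gene, at −1.17 and −1.57, with values near or above 0 beyond the gene. CYP3A5 stepped by −0.90 and −1.30, and CYP51A1 by −1.87 and −0.49. CYP4V2, CYP2R1, CYP27C1 and CYP20A1 stepped down in replicate 1 only, by −2.32, −1.73, −1.24 and −1.23, with a step of 0 in replicate 2. CYP27C1 differed from the others in that its gene body stayed high.

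Among the 5 members with a rise, CYP27B1 (2.08 and 1.19) and CYP26C1 (0.64 and 0.75) showed it in both replicates. CYP27B1 lies in a run of genes with low ratios, and the segment over nearly all of it in replicate 1 was at −0.19, against −2.27 before its start. In replicate 2 the part near the start was at −1.87 and the rest of the gene at 0.20. CYP2W1 (1.76) and CYP2D6 (1.31) rose in replicate 1 only and CYP26B1 (1.62) in replicate 2 only.

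**Figure D5:**
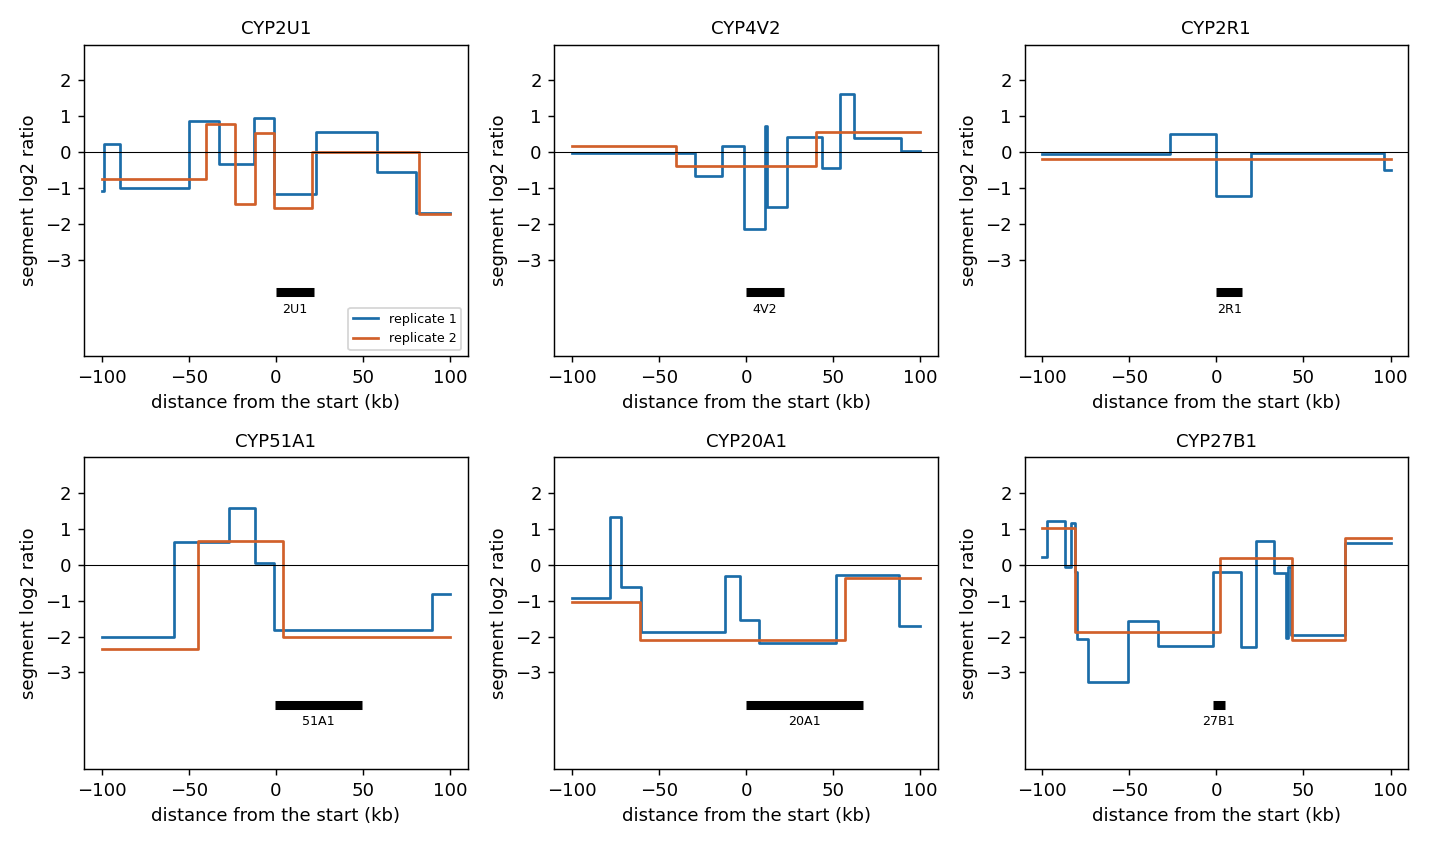
Segment log2 ratio of macroH2A1 ChIP over input (y axis) within 100 kb of the start of the canonical transcript (x axis, kb, gene to the right) for 6 P450 genes with steps or low values, with replicates as lines and the gene as a black bar. CYP2U1 shows a low segment about as long as the gene in both replicates. In replicate 1 only, CYP2R1 shows a low segment over the gene, and CYP4V2 shows low segments parted by a short higher segment.

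The P450 genes were also compared with the genes around them. The same comparison was not made for other autosomal genes, which as a whole were already lower (median −0.90 against −0.25). Whether the difference from neighbours is particular to P450 genes was therefore not tested. The P450 genes form 31 loci when members whose starts lie within 1 Mb are joined, and 8 loci with more than 1 member hold 31 of the 54. Around the loci, 248 other protein-coding genes lay within 200 kb. The median of the members was higher than that of the neighbours in 19 loci, lower in 8 and equal in 4, with a median difference of 0.59. It was higher by over 1 in 11 loci and lower by over 1 in 1, that of CYP4V2. Among the 11, the loci of CYP1B1 and CYP26B1 had 1 neighbour each. CYP4V2 was at −1.72 and −0.38 in the replicates, beside 0.07 for its neighbours, so its difference rested mainly on replicate 1. The 4 equal loci were those of CYP2J2, CYP39A1, CYP7B1 and the CYP4F genes. There the median of the neighbours repeated the value of the members' own segments, so it was not a separate measurement.

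The contrast was marked around some of the loci and not around others. At the locus of CYP2A6 to CYP2S1, 19 of 19 neighbours were below 0 in both replicates, against 71.8% of autosomal genes. The median of these neighbours was −2.21, and that of the members was 0.18. At the CYP3A locus 18 of 19 neighbours were below 0, with a median of −1.98 against −0.11. CYP21A2 lies in the gene-dense major histocompatibility complex, where 21 of 25 neighbours were below 0, with a median of −1.66 against 0.48. At the locus of CYP11A1, CYP1A1 and CYP1A2 the medians were −1.65 and 0.59, and around CYP27C1 they were −1.59 and 1.18. CYP19A1 did not stand apart, since its 3 neighbours also had a median of 1.12. Its segment in replicate 2, 411.2 kb long, reached beyond the gene on both sides, so neighbours may share its measurement. At the CYP4F locus the members and their 14 neighbours had the same median, −0.49, which is the value of the long segments that 4 members share. The pair CYP11B1 and CYP11B2 lay slightly below its neighbours, at −0.07 against 0.05.

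Genes that supply P450 enzymes with electrons had a median log2 ratio of −1.09, close to the −0.90 of autosomal genes. Of these 11 genes for electron donors and their helpers, 10 were below 0 in both replicates (90.9%, against 71.8%). POR, the reductase that feeds all microsomal P450 enzymes, was at −1.60 and −1.29, and FDX1, the mitochondrial ferredoxin, at −1.10 and −1.08. The lowest were FDX2 (−2.28 ± 0.66, SD, n = 2) and CYB5R1 (−2.01 ± 0.02), and the highest were CYB5R2 (−0.40 ± 0.09) and PGRMC1 (0.49 ± 0.06), which is on chromosome X. A drop of at least 0.5 at the start was found in 8 of these 11 genes (72.7%, against 38.5% of autosomal genes). POR and FDX1 were named for their role after their values were seen.

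The 27 regulators of P450 genes were spread from far below to far above 0, with a median of −0.63. Of them 15 were below in both replicates (55.6%, against 71.8% of autosomal genes), 11 above (40.7%, against 20.8%) and 9 covered (33.3%, against 17.4%). The lowest were CEBPB (−3.10 ± 0.15, SD, n = 2), a stress and differentiation factor, and RXRB (−2.30 ± 0.24), a partner of nuclear receptors. The highest were NR5A2 (0.87 ± 0.03), a liver receptor of bile acid synthesis, and NR5A1 (0.81 ± 0.36), the factor of adrenal and gonadal steroid synthesis. Of 31 other oxidising and hydrolysing enzymes, 12 were covered (38.7%, against 17.4%), 12 below (38.7%, against 71.8%) and 14 above (45.2%, against 20.8%). Their median was 0.11. PTGIS and TBXAS1, which were among the covered, are themselves P450 enzymes that were not among the listed members. The 31 enzymes ran from CES2 (−2.10 ± 0.91) and NQO1 (−1.88 ± 0.29) to MAOA and MAOB (both 0.91 ± 0.01), a pair on chromosome X. Of 44 conjugating enzymes 39 were measured, with 16 covered (41.0%, against 17.4%), 19 below (48.7%, against 71.8%) and 18 above (46.2%, against 20.8%). Their median was −0.37. UGT1A1, UGT1A3, UGT1A4, UGT1A6 and UGT1A9, 5 of the 16 covered, have overlapping spans and identical values, so they are 1 measurement. The lowest were GSTP1 (−1.83 ± 1.60) and MGST3 (−1.76 ± 0.22), and the highest SULT2B1 (1.09 ± 0.02) and GSTA3 (1.12 ± 0.17).

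CYP51A1 lay among low genes of its own pathway. Of 19 genes of sterol synthesis, 16 were below 0 in both replicates (84.2%, against 71.8% of autosomal genes) and 0 were covered (against 17.4%), with a median of −1.82, close to the −1.79 of CYP51A1. The lowest were IDI1 (−2.36 ± 0.04, SD, n = 2) and FDPS (−2.35 ± 0.03), and EBP, on chromosome X, was among the highest (0.22 ± 0.42). Of 21 other genes of steroid hormone metabolism, 11 were below (52.4%, against 71.8%), 7 above (33.3%, against 20.8%) and 4 covered (19.0%, against 17.4%). Their median was −0.36, beside 0.45 for the 6 steroid P450 genes. The lowest were HSD3B7 (−2.37 ± 0.13) and HSD17B1 (−2.34 ± 0.14), and the highest HSD17B3 (0.48 ± 0.20) and AKR1C3 (0.65 ± 0.20). Of 15 genes of retinoid transport and metabolism, 7 were covered (46.7%, against 17.4%), with a median of 0.40. They ran from RDH5 (−2.34 ± 0.10) and RDH11 (−2.31 ± 0.13) to DHRS3 (1.07 ± 0.30) and STRA6 (1.30 ± 0.13).

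Genes that mark the labelled cell type were low in macroH2A1. Of 15 fibroblast markers 13 were below 0 in both replicates (86.7%, against 71.8% of autosomal genes), with a median of −2.29 (against −0.90), from COL1A1 (−3.13 ± 0.30, SD, n = 2) and COL6A1 (−3.04 ± 0.35) to S100A4 (0.33 ± 0.39) and LUM (0.88 ± 0.11). Of 14 hepatocyte markers 6 were below (42.9%, against 71.8%) and 7 above (50%, against 20.8%), with a median of 0.12. They ran from HP (−1.37 ± 0.19) and TTR (−0.30 ± 0.01) to APOA1 (0.63 ± 0.16) and APOH (0.93 ± 0.01). ChIP data hold no expression, so they do not check the cell type through RNA, and whether the P450 genes are transcribed in these cells was not measured.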

How the data were processed

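MacroH2A1 ChIP-seq was deposited for 2 replicates of IMR90 cells, each as its own segmentation with gapped blocks, with replicates not pooled. The 2 inputs served as the denominator in those files. The authors' deposited files hold, for each segment, the ChIP to input ratio as a log2 value and a −log10 p-value. Base 2 was inferred, since it gives a mean linear ratio near 1. The submitters' processing notes name CASAVA 1.7 and hg19. Not given in the sources used here are the aligner, duplicate handling, segmentation program and scaling.

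Genes were those of GENCODE 44 on GRCh37, without chromosome Y and the mitochondrial genome, and 15 rows of symbols naming more than 1 gene were left out. A gene was measured with at least 50% of its span assayed in both replicates; all 54 members passed. The enriched part of the genome was 35.5% and 33.3% of assayed bases. Python 3.11.15, numpy 2.4.6, pandas 2.3.3 and scipy 1.17.1 were used. The interval sums were checked on simulated data, with 0 mismatches in 200 regions. Members and lists were chosen with earlier results of these data known. Full values are given for the 2 highest and 2 lowest members of each role, members of opposite sign, neighbours differing by over 1, and the 2 extremes at each end of each companion list; other members are named by cluster or pathway. A gene that the rule names is not reported here. Alternatives were other thresholds, gene regions, gaps, shares, each replicate alone and chromosome X in the background.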

Additional observations from a re-analysis of the deposited data

How the results depend on the processing

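The number of covered P450 genes was 17, and it was 11 with a −log10 p of at least 5 and 6 with a log2 ratio above 0.5. Under the other settings it stayed within 1.5 times of 17. The median log2 ratio of −0.25 was −0.28 in a 5-kb window at the annotated start, −0.29 with 10 kb added on each side, and −0.16 for the 51 members with at least 90% of the span assayed. In settings chosen after seeing the data it was −0.33 in a 5-kb window at the canonical start and −0.068 with members in the same segments counted once, and it kept its value over the span of the canonical transcript. These medians differ in part because the regions or the genes counted differ. With each replicate alone, covered members numbered 18 to 20, members below 0 30 to 31, and the median was −0.25 to −0.22. In the 5-kb window at the annotated start 36 member values moved by less than the replicate SD, 15 moved by more, and 3 with 1 sign in both replicates changed it, to −0.15 for CYP11B1, −0.99 for CYP27A1 and 0.027 for CYP3A7. Among the 15, CYP4F22, whose replicates differ in sign, went from 0.051 to −0.16, CYP51A1 to −0.24, CYP26C1 to −1.17 and CYP27B1 to −1.56. The cause was not tested. With chromosome X in the background, 19.2% of genes were covered and 69.7% below 0. No paired analysis was possible because the inputs that share replicate numbers with the ChIP samples have no values of their own here. Depth is unknown, and peaks or dips shorter than a segment are not seen.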
